A study of Mus musculus with 4 samples.

Results

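The genes described here belong to multicopy families with copies that mark the 2-cell-like state of mouse embryonic stem (ES) cells, together with 4 single genes known from the same state. Membership went by name, so not every row need mark this state. Members were the table rows whose name starts with Zscan4, Tcstv, Usp17l, Tdpoz, Pramef, Pramel, Obox or Dux, plus Tmem92, Sp110, Arg2 and Zfp352. This gave 98 of the 50600 rows. By the GENCODE annotation 46 of them are protein-coding, 50 are pseudogenes and 2 are of another type. RNA-seq was done on 4 libraries of the mouse ES cell line OG2ES, which per the labels comes from the inner cell mass. Of these, 2 were of genotype WT and 2 of genotype Myh9 KO, and all 4 were grown in mES medium plus 2i, a pair of inhibitors that keeps ES cells naive. The labels give neither how the knockout was made nor whether it was 1 clone, so a difference between lines cannot be told apart from the loss of Myh9. Nor do they state that replicates came from separate cultures, so p-values measure only how these libraries vary, which can be technical.

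A few cells in an ES culture enter, for a short time, a state in which they switch on genes of the cleavage-stage embryo and the endogenous retrovirus MERVL. The double homeobox factor Dux, made from a tandem repeat, is a known activator of this programme. Most of its target families arose by local duplication in rodents, so that near-identical copies lie side by side and share sequencing reads. In bulk RNA, fewer cells in such a state and less RNA per cell cannot be told apart.

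Values are the deposited whole numbers, which behave like per-million values, and a fold change is a difference of log2(value + 1) from limma, Myh9 KO minus WT. Library sums lay between 992098 and 992317, the sequencing depth is unknown, and between 11653 and 11947 rows were above 0. Myh9 itself had values of 83 and 100 in WT and of 9 in each Myh9 KO library (limma log2 fold change -3.20, SE 0.12, adjusted p = 0.00675). Without Myh9 KO 1 or Myh9 KO 2 limma gave an adjusted p of 0.0675 or 0.0709, with the same direction. Of 11231 genes tested (mean value of at least 1), limma called 894 lower and 805 higher in Myh9 KO at an adjusted p under 0.05. With each library shifted to the same median these counts were 819 and 1164. Mki67, a gene of dividing cells, and the widely used kinases Rock1 and Rock2 were at 0 in all libraries, so a row listed at 0 is given by its values, with no fold change. A change is called here only where limma also passed with random decimals, that is, with a random number between 0 and 1 added to every whole number.

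Nearly all member rows that had a value in WT cells were listed at 0 in Myh9 KO cells. Of the 98 rows, 64 were at 0 in all 4 libraries and 34 had a value in at least 1. All 34 had a value in a WT library, but only 6 had one in a Myh9 KO library, namely Zscan4e, Tmem92, Pramef12, Pramef8, Pramel6 and Pramel7. The summed value of all members was 291 and 320 in WT, against 88 and 82 in Myh9 KO. Most of what was left came from Pramef12. Only 27 of the 34 rows reached a mean value of 1, so some of these zeros came from WT values near the lower limit. With at least 5 in both WT libraries, a limit chosen after the values were seen, 12 of 18 members were at 0 in both Myh9 KO libraries. Over all rows of the table these were 36 of 8159 (0.44%).

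Of the 27 member rows that reached the filter, 22 fell by both tests and 0 rose. Over all tested genes 7.96% were lower by limma and 5.81% by both tests. Most of these 27 rows reached the filter through their WT values alone, so they had to be lower if they differed, and the count is given as a description. Without Myh9 KO 1 or without Myh9 KO 2 limma alone called 11 of the 27, while with random decimals 25 were called in each case. Those that limma lost without either of these libraries were Zscan4a, Zscan4c, Zscan4d, Zscan4f, Zscan4-ps3, Tcstv3, Usp17la, Usp17lc, Pramef25, Obox4-ps18, Arg2 and Sp110. The limma spread then came from the WT libraries alone, so rows with equal WT values could not lose their call. With random decimals and without WT 1, Usp17ld, Obox4-ps18, Obox4-ps27, Zscan4-ps1 and Zscan4-ps3 were not called, and without WT 2 Usp17ld, Obox4-ps27 and Zscan4-ps1 were not. The 5 rows that were not called by both tests were Duxf3, Pramef12, Pramef8, Pramel6 and Pramel7. The plot of member values by library shows these rows beside the others.

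**Figure D1:**
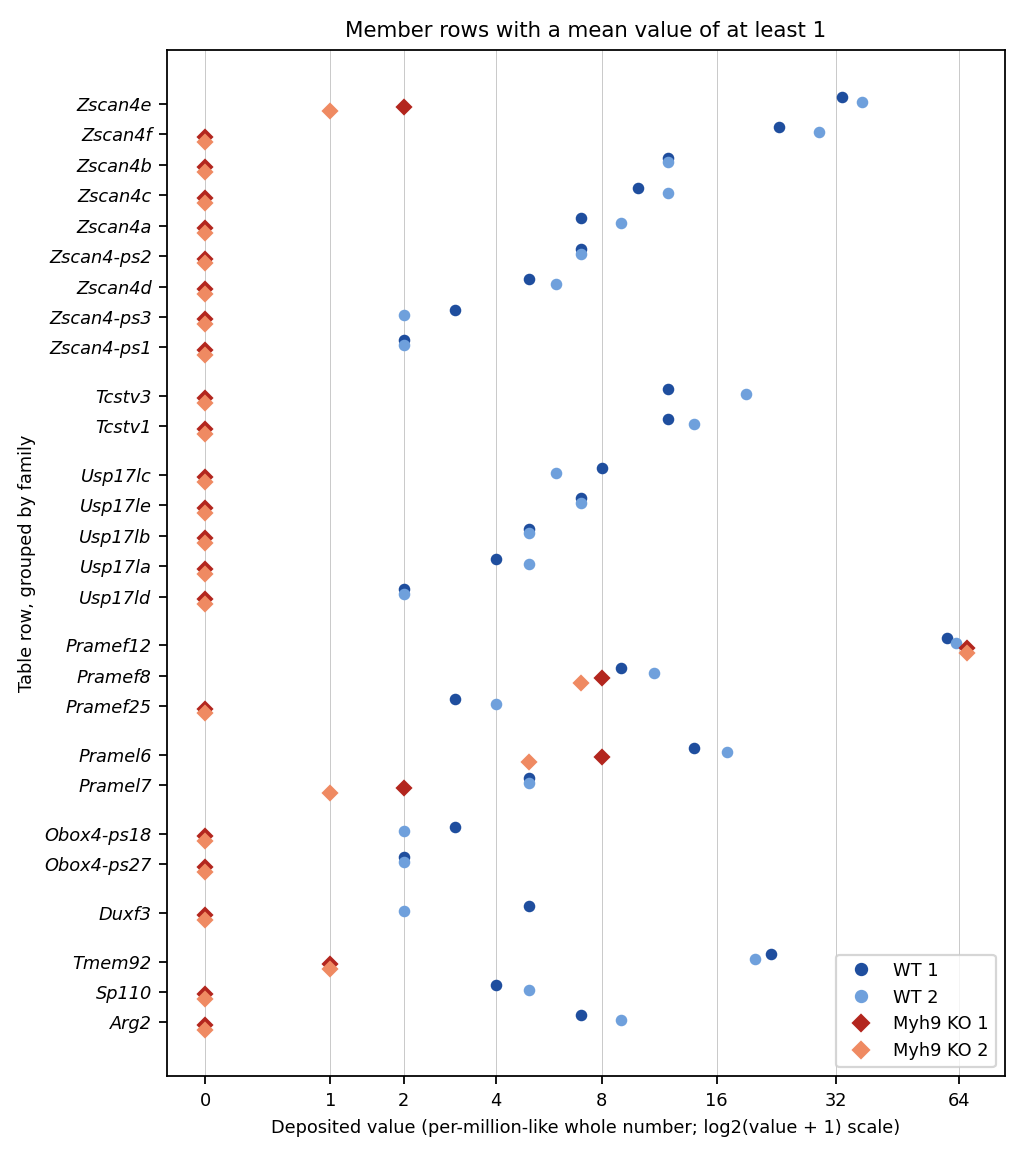
Deposited value (x axis, log2(value + 1) scale) of the 27 member rows with a mean of at least 1, 1 line per row grouped by family, with WT libraries as circles and Myh9 KO libraries as diamonds. In 21 rows both diamonds lie at 0, while Pramef12 sits between 60 and 67 in all 4 libraries.

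Because copies share reads, the sum over a family is less dependent on how reads were divided among its rows. An exact permutation test of 2 libraries against 2 cannot give a 2-sided p below 0.333, so sums are described without a test. The 9 Zscan4 rows summed to 102 and 116 in WT and to 2 and 1 in Myh9 KO, so that the Myh9 KO mean was 1.38% of the WT mean. The 2 Tcstv rows summed to 24 and 33 in WT, and the 6 Usp17l rows to 26 and 25. Both families were at 0 in each Myh9 KO library. The 55 Obox rows (6 and 8 in WT), the 4 Dux rows (7 and 3) and the 5 Tdpoz rows (1 and 1) were also at 0 in Myh9 KO, from much lower levels. The 7 Pramel rows were at 19 and 22 in WT and at 10 and 6 in Myh9 KO, a Myh9 KO mean of 39.0% of WT. In the 6 Pramef rows the sums of both groups overlapped, 72 and 78 in WT, then 75 and 74 in Myh9 KO.

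**Figure D2:**
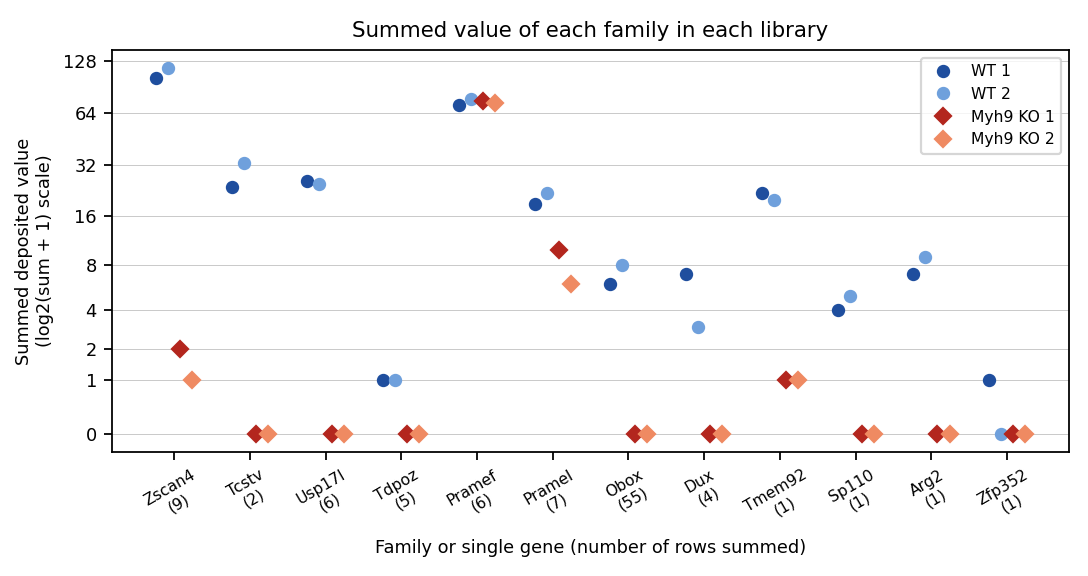
Summed deposited value (y axis, log2(sum + 1) scale) of each family or single gene in each library, with the number of rows summed in brackets. Zscan4, Tcstv and Usp17l drop from sums between 24 and 116 to 2 or less, and Pramef stays between 72 and 78.

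Among the homeobox families, the signal was low even in WT. Duxf3, the table's row for Dux (mm10 chromosome 10, 58229979 to 58232675), had values of 5 and 2 in the WT libraries and was at 0 in both Myh9 KO libraries. The WT libraries differed from each other, and limma did not call the row (adjusted p = 0.0992, with random decimals 0.0113). With median-scaled libraries limma called it (adjusted p = 0.0255). Of the related Duxbl rows, Duxbl2 had 2 and 0 and Duxbl3 had 0 and 1 in WT, Duxbl1 was at 0 throughout, and all 3 were at 0 in Myh9 KO. The Obox genes, homeobox genes of the oocyte and early embryo, form the largest family by number of rows, 47 of 55 being pseudogenes. Of these rows 51 were at 0 everywhere. Obox4-ps18 (3 and 2 in WT) and Obox4-ps27 (2 and 2) were at 0 in Myh9 KO and fell (limma adjusted p = 0.0344 and 0.000126). The smaller value comes from equal whole numbers, and with random decimals the limma adjusted p was 0.0130 and 0.0211. Obox4-ps28 (0 and 2) and Obox6 (1 and 2), below the filter, were at 0 in Myh9 KO as well.

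The zinc finger family Zscan4, whose proteins lengthen telomeres in ES cells and whose bursts define part of the 2-cell-like population, carried the largest signal of the families that were lost. Its 9 rows lie on mm10 chromosome 7 between 10794242 and 11614112. In WT cells their levels ranged from 2 to 37, and all 9 were above 0 in both WT libraries. Zscan4e was highest, with 33 and 37 in WT, or 32.4% and 31.9% of the family sum. It was the only row of the family above 0 in Myh9 KO, at 2 and 1 (limma log2 fold change -3.88, SE 0.27, adjusted p = 0.0193). Without WT 1 or without WT 2 limma no longer called Zscan4e, while random decimals did. The other 8 rows, at 0 in both Myh9 KO libraries, could not lose their limma call in this way, since equal values leave no spread. Zscan4f followed with 23 and 29 in WT, then 0 and 0 in Myh9 KO (limma adjusted p = 0.00446). Zscan4b had 12 and 12, Zscan4c 10 and 12, and Zscan4a 7 and 9, each then at 0 in both Myh9 KO libraries. Zscan4d (5 and 6), Zscan4-ps1 (2 and 2), Zscan4-ps2 (7 and 7) and Zscan4-ps3 (3 and 2) were also at 0 in Myh9 KO. All 9 rows fell by both tests. The 8 rows at 0 in Myh9 KO reached the filter through WT alone and could only be lower, so this is a description.

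Promoters from RefSeq (GRCm38.p6, the build of mm10; 250 bases before to 50 after the annotated start) were at hand for 14 of the 27 tested rows. The 4 Zscan4 promoters are shown because these copies went to 0 together and their start regions are nearly the same. They are Zscan4b (chr7:10905001-10905300, minus strand), Zscan4c (chr7:11005495-11005794, plus), Zscan4d (chr7:11166099-11166398, minus) and Zscan4f (chr7:11397665-11397964, plus). Each is written 5′ to 3′ on the strand of its gene, and capitals mark TATAAA, the core of a TATA box.
Zscan4b: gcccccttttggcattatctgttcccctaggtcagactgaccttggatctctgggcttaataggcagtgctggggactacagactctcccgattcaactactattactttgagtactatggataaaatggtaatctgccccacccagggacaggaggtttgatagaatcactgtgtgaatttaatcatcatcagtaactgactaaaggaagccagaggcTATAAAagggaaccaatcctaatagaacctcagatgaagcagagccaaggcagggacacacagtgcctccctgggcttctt
Zscan4c: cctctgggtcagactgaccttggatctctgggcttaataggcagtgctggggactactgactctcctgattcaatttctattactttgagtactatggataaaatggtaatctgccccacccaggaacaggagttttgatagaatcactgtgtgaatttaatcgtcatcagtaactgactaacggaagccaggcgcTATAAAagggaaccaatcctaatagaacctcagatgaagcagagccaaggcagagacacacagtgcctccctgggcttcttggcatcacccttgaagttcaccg
Zscan4d: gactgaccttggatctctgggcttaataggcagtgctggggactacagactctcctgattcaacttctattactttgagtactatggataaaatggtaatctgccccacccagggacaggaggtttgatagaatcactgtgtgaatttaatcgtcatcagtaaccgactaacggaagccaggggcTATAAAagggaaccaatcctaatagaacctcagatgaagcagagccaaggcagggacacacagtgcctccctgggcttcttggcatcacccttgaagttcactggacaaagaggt
Zscan4f: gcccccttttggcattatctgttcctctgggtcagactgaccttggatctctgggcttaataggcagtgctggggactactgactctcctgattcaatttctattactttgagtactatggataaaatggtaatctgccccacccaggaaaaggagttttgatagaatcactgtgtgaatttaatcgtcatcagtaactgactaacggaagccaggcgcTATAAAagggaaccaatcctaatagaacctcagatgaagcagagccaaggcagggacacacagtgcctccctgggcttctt

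Between any pair of them, 95.3% to 99.3% of 266 to 300 aligned bases were identical (MAFFT). Zscan4c and Zscan4f were the closest pair. Each held TATAAA once on the strand of the gene, starting 31 bases before the annotated start in Zscan4b and Zscan4f, 54 in Zscan4c and 65 in Zscan4d. Over all 32851 promoters in the table, 8.32% held TATAAA on the gene's strand and 13.6% on either strand. Among the 14 tested rows with a promoter, 7 held it, all of them Zscan4 or Usp17l. These 7 are similar copies within each family, so they are not independent matches. A second motif, GATTNAATC, was searched in the same promoters on either strand. It was found in 1 of the 14, that of Duxf3, and in no Zscan4 or Usp17l promoter, beside 0.268% of all promoters. A match to either motif is a description of its letters only.

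The Usp17l genes code for deubiquitinating enzymes, first known as DUB genes induced by cytokines in blood cells. Of 6 rows, all on chromosome 7, 5 had a value in both WT libraries. They were Usp17lc (8 and 6), Usp17le (7 and 7), Usp17lb (5 and 5), Usp17la (4 and 5) and Usp17ld (2 and 2). No single copy stood out in WT, the highest row, Usp17le, holding 26.9% and 28.0% of the sum. All 5 were at 0 in both Myh9 KO libraries and fell, with limma adjusted p from 0.000126 to 0.0130. The smallest values come from equal whole numbers. With random decimals the limma adjusted p ranged from 0.000282 (Usp17le) to 0.0183 (Usp17ld). The pseudogene Usp17le-ps was at 0 throughout. The promoters of Usp17la (chr7:104856766-104857065, plus strand), which lacks TATAAA, and Usp17lc (chr7:103416446-103416745, plus), which holds it, are shown as a copy without and a copy with these letters, both genes being at 0 in Myh9 KO.
Usp17la: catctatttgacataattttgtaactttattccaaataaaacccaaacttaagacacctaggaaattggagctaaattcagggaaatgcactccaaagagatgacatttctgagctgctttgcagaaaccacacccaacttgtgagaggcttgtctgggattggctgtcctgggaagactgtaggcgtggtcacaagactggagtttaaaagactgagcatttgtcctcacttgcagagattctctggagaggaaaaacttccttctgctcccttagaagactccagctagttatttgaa
Usp17lc: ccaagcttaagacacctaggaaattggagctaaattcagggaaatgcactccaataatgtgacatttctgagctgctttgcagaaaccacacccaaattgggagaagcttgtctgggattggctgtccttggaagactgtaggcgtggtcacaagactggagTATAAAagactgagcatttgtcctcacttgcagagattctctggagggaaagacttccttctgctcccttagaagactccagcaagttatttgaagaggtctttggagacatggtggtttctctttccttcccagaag

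Among the 4 Usp17l promoters at hand, 91.0% to 96.8% of the aligned bases were identical. Usp17lb, Usp17lc and Usp17ld held TATAAA, 31, 88 and 110 bases before the annotated start.

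The Tcstv genes, named for variable transcripts of the 2-cell stage, lie on chromosome 13. Tcstv1 (119893388 to 119894785) had values of 12 and 14 in WT and Tcstv3 (120317567 to 120318076) of 12 and 19. Both were at 0 in each Myh9 KO library and fell (limma adjusted p = 0.00346 and 0.0189). The Tdpoz genes, whose proteins carry TRAF and POZ domains, were close to the lower limit of the table. Of 5 rows on chromosome 3, Tdpoz3 (0 and 1 in WT) and Tdpoz4 (1 and 0) had a value, and none of the 5 had one in Myh9 KO, so no comparison was possible.

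The PRAME-type families, which code for leucine-rich repeat proteins of the germline and early embryo, did not move as one. Pramef12 had values of 60 and 63 in WT, then 67 in each Myh9 KO library. It was the member with the highest level in any library and was not called (limma log2 fold change 0.12, SE 0.03; 95% confidence interval from 0.01 to 0.24; adjusted p = 0.135). Pramef8, at 9 and 11 in WT, had 8 and 7 after the knockout and was not called either (log2 fold change -0.37, SE 0.14; interval from -0.85 to 0.11; adjusted p = 0.209). Pramef25, in contrast, went from 3 and 4 to 0 and 0 and fell (limma adjusted p = 0.0180). The other 3 Pramef rows were at 0 throughout.

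Pramel6 and Pramel7, neighbours on chromosome 2, have known roles in naive ES cells, where Pramel7 promotes loss of the methylation factor Uhrf1. Pramel6 had 14 and 17 in WT, then 8 and 5 in Myh9 KO (limma log2 fold change -1.16, SE 0.28). Pramel7 had 5 in both WT libraries, then 2 and 1 in Myh9 KO (-1.29, SE 0.26). Limma did not call either gene (adjusted p = 0.119 and 0.0920), while random decimals called both (0.00472 and 0.0132). With median-scaled libraries limma called both (adjusted p = 0.0280 and 0.0266). The 5 other Pramel rows were at 0 in all libraries. The promoters of Pramel6 and Pramel7 were identical at 46.1% of aligned bases and held no TATAAA. Those of Pramef12 and Pramef25 were identical at 44.9%. Pairs from different families were not aligned, so these shares have no baseline and do not show likeness. The promoter of Pramef12 (chr4:144408415-144408714, minus strand, listed by RefSeq as Pramel13) is shown as the start region of the member with the highest value.
Pramef12: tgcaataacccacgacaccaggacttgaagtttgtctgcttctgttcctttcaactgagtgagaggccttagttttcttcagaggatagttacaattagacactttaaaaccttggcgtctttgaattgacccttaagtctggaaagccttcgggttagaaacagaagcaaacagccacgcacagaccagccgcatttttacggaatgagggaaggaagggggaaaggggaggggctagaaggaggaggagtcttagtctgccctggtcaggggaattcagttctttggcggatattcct

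Of the 4 single genes, Tmem92, which codes for a transmembrane protein, was highest. It went from 22 and 20 in WT to 1 in each Myh9 KO library (limma log2 fold change -3.46, SE 0.06, adjusted p = 0.00182). Arg2, the mitochondrial arginase, had 7 and 9 in WT, and Sp110, a nuclear body protein, 4 and 5. Both were at 0 in Myh9 KO and fell (limma adjusted p = 0.00991 and 0.0103). Zfp352, a zinc finger gene of the 2-cell embryo, had 1 and 0 in WT and was at 0 in Myh9 KO, below the filter.

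The rows that were lost and those that were kept also differed in how far their sequence is shared. Of the 50-base words of the 9 Zscan4 rows, 48.4% to 90.1% occur in another gene, nearly all in other Zscan4 rows. For Usp17l the range was 20.1% to 51.1%, for Tcstv1 and Tcstv3 it was 14.96% and 31.4%, and for Obox4-ps18 it was 100%. A single row of these families is therefore uncertain, including the value left in Zscan4e (89.0%). Arg2 (21.2%), Sp110 (42.3%), Duxf3 (47.0%) and Pramef25 (63.5%) share words only with genes outside their own family as defined here. Families were set by name among the members, so any related copy under another name counts as outside. For the single genes Arg2 and Sp110 no other result was possible. Of Pramef12, Pramef8 and Pramel6, which kept a value, 0% was shared, and of Pramel7 1.43%. Tmem92 fell with 1.93% shared.

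To see how this compares with other genes, the same share was computed for all tested genes after the member values had been seen. Of 1093 genes that are no member, share 20% or more of their words and had at least 5 in both WT libraries, 18 (1.65%) had 0 in each Myh9 KO library. Among 5558 such genes that share under 5%, 2 were. Of the 12 members that met these conditions with 20% or more shared, 11 were at 0. By both tests, 10.3% of tested genes that are no member and share 20% or more were lower, against 4.37% of those under 5%. Whether the handling of shared reads had a part in the members' result was not tested.

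**Figure D3:**
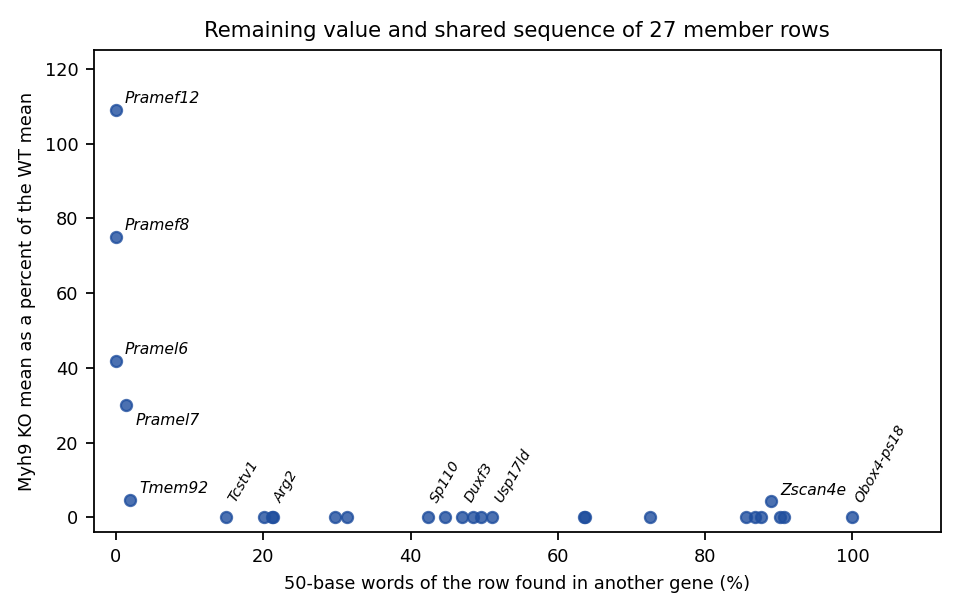
Share of a row's 50-base words found in another gene (x axis, %) and its Myh9 KO mean as a percent of its WT mean (y axis) for the 27 tested member rows. The 4 rows that kept the most, Pramef12, Pramef8, Pramel6 and Pramel7, lie at 0% to 1.43% shared, Tmem92 lies low at 1.93%, and Zscan4e is the only other row above 0.

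Genes next to the members were looked at to see whether whole regions were lower. Within 500 kb of a tested member row, 55 tested genes that are no member were found, and 14 (25.5%) fell and 0 rose by both tests, beside the 5.81% of all tested genes. Of these 14, 7 belong to the lists of 2-cell-like and PRAME-type genes under other names. Among the 48 neighbours not on these lists 7 (14.6%) fell, all 7 being at 0 in both Myh9 KO libraries. Of all 55 neighbours 11 were at 0 in both. These 11 reached the filter through WT alone and could only be lower, so the counts are a description. Around Tcstv1 and Tcstv3, 8 of 12 neighbours fell. BC147527 (5 and 5), AF067061 (7 and 7) and AF067063 (2 and 2) went to 0 and 0 in Myh9 KO. The 4 that were not called all lie at lower coordinates than these 8, among them Hmgcs1, an enzyme of cholesterol synthesis (42 and 44 in WT, 35 and 32 in Myh9 KO). Near Pramef8, Pramef25 and Pramef12, Gm13040 (9 and 9), BC080695 (6 and 7) and Gm13119 (5 and 4) were likewise at 0 in Myh9 KO, 3 calls among 8 neighbours.

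Next to Sp110, Gm16026 (8 and 10) and A530040E14Rik (4 and 3) were at 0 in Myh9 KO, while Itm2c (40 and 39 in WT, 42 and 42 in Myh9 KO) was not called. Near Tmem92, Gm11543 went from 15 and 8 to 0 and 0, the only call among 13 neighbours. None of the 11 tested neighbours of Arg2, the 2 of the Zscan4 rows, the 3 of the Obox rows and the 1 of Duxf3 was called by limma or by both tests. The Zscan4 neighbours were both low, Zik1 at 1 in every library and Gm7789 at 1 and 2, then 2 and 1. No tested neighbour lay near the Usp17l or Pramel rows.

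**Figure D4:**
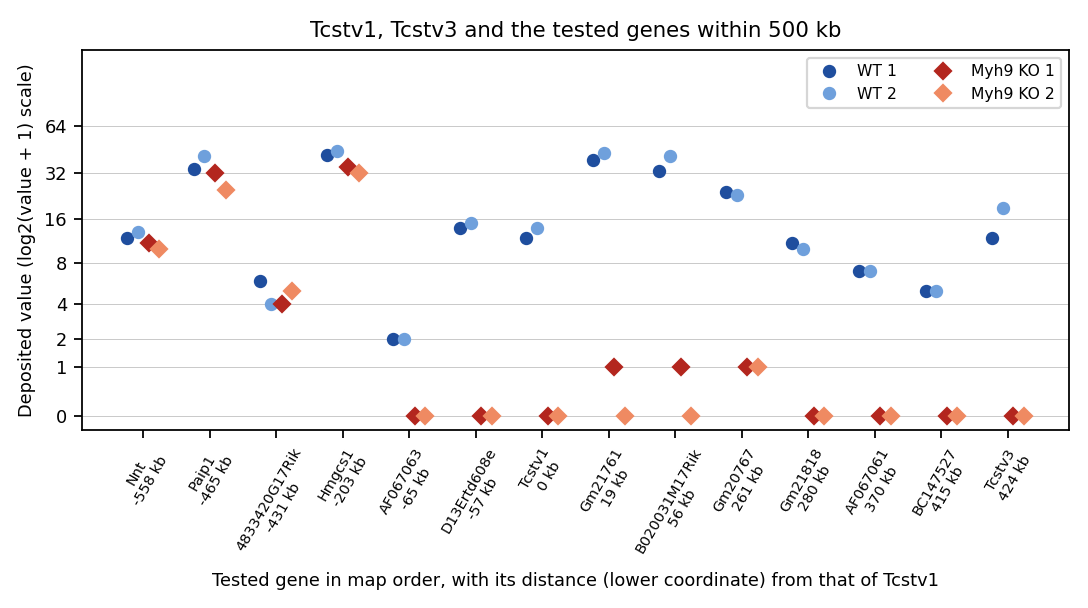
Deposited value (y axis, log2(value + 1) scale) of Tcstv1, Tcstv3 and the 12 other tested genes within 500 kb, in map order, with each gene's distance from Tcstv1 in kb under its name. The 8 genes nearest to the Tcstv rows are at 1 or less in Myh9 KO, and the 4 outermost on the left keep values of 4 or more.

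Other genes of the programme were mostly lower as well. The lists below were drawn up with earlier results of these libraries known, so they are no independent evidence of a direction. Of 24 genes on the list of 2-cell-like genes outside the members, 22 were in the table and 13 reached the filter; 11 of these fell and 0 rose. Over all tested genes 5.81% were lower by both tests. In Myh9 KO 7 of the 13 were at 0 in both libraries, so they reached the filter through WT alone and could only be lower, and the count is a description. BC147527 and AF067061, both given above, Gm5662 (12 and 12, then 0 and 0) and Gm6763 (43 and 45, then 1 and 1) had the smallest p. Summed over the list, values were 286 and 334 in WT, then 12 and 5 in Myh9 KO. Gm4340, the highest of them, had 72 and 98 in WT but 6 and 0 in Myh9 KO, and with Myh9 KO libraries so far apart limma did not call it (adjusted p = 0.123; with random decimals 0.00111). Of 22 PRAME-type genes under other names only 3 reached the filter, AA792892 (3 and 3), Gm13040 and BC080695, and all 3 fell to 0 and 0, again rows that passed through WT alone.

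Genes that are known to switch this programme on or off were looked at as well. Of 28 tested regulators, 1 rose, 2 fell and 25 were not called by both tests, beside 576 higher and 653 lower of all 11231 tested genes, with a median log2 fold change of -0.06. Lin28a, which binds RNA and blocks let-7 maturation, rose in Myh9 KO to 215 and 217, over 111 and 114 in WT (limma log2 fold change 0.94, SE 0.02, adjusted p = 0.00274). Dppa3, the maternal factor Stella, fell from 22 and 22 to 8 and 9 (-1.28, SE 0.07, adjusted p = 0.0136). With random decimals alone 3 regulators rose and 3 fell, beside 1248 higher and 1351 lower of all tested genes. Among these, limma did not call Dppa2, which was lower (82 and 83 in WT, 63 and 57 in Myh9 KO). Nor did it call Uhrf1 (401 and 427, then 489 and 515) and Pias4 (65 and 61, then 75 and 74), which were higher. The list is of mixed direction, since it holds activators and repressors.

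Markers of the labelled cell type were present in both groups. All 8 genes of the naive pluripotency list had values in every library, with a median log2 fold change of 0.03. Their summed values were 4673 and 4841 in WT, and in Myh9 KO 4769 and 4835. Pou5f1 made up most of each sum (3045 and 3122, then 3104 and 3189). Only Sox2 was called by both tests, lower at 126 and 121 than the 177 and 183 of WT (limma log2 fold change -0.54, SE 0.03, adjusted p = 0.0178). With random decimals alone 2 rose, Zfp42 (140 and 142 in WT, 210 and 181 in Myh9 KO) and Klf4 (51 and 59, then 65 and 69). In the same fit 2 fell, Sox2 and Tfcp2l1 (66 and 73, then 59 and 57). Over all 11231 tested genes, 653 were lower and 576 higher by both tests. With random decimals alone these counts were 1351 and 1248. Of 10 feeder fibroblast markers 2 reached the filter, Thy1 (3 and 4, then 4 and 5) and Pdgfrb (1 and 0, then 1 and 2), and neither was called. The collagen markers Col1a1, Col1a2 and Col3a1 were at 0 in every library. Mki67, Rock1 and Rock2 were so too, so a 0 here does not show that feeder cells were absent.

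**Figure D5:**
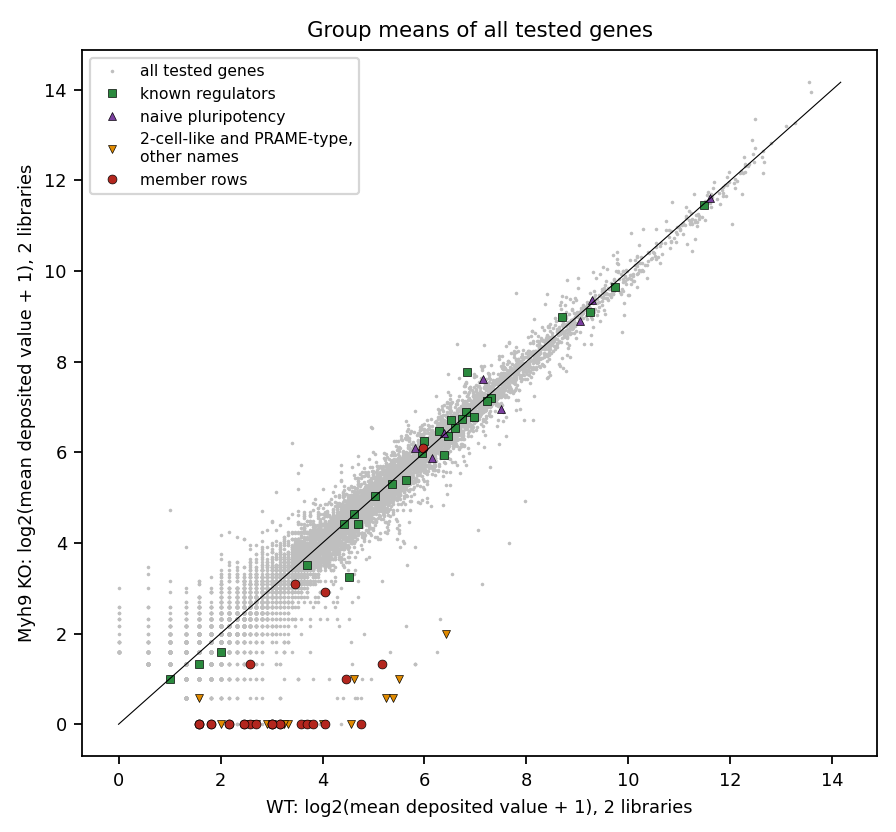
Mean of the 2 WT libraries (x axis) against the mean of the 2 Myh9 KO libraries (y axis), both as log2(mean value + 1), for all 11231 tested genes, with the line of equal values. Most member rows and 2-cell-like genes under other names lie at or near 0 on the y axis. Most regulators and naive genes lie near the line, and Lin28a, Dppa3, Sox2 and Zfp42 are among those off it.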

How the data were processed

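RNA-seq was measured in 2 WT and 2 Myh9 KO libraries. The deposited table holds 1 whole-number value per gene and library. It was treated as a score, since the authors' values sum to nearly the same total in each library and so are not read counts. How they were normalised and brought to whole numbers is not given in the sources used here. Bowtie2 2.2.5, RSEM 1.3.0 and bcl2fastq, with mm10 and hg38, are named per the submitters' processing notes, without a role. All 98 member identifiers were found in GENCODE vM21 (mm10), 97 with the same coordinates. Values were tested across all genes with limma 3.58.1 (R 4.3.3; log2(value + 1), variance trend, mean of at least 1, no block, Benjamini-Hochberg). Equal whole numbers leave no spread, so a second fit took the median adjusted p over 25 draws of random decimals. Both were tested on simulated data. Named were all member rows that reached the filter, Myh9, up to 4 called genes of each other list and up to 3 neighbours per region, those with the smallest p (1 called regulator is not reported here); the few others named were chosen after their values were seen. Families were summed over all rows. Words of 50 bases came from GENCODE transcripts, on either strand, and promoters were aligned with MAFFT 7.526. The members, lists and alternatives were chosen with earlier results of these data known. Alternatives were other pseudocounts, filters, scaling and variance settings, a replicate block and each library left out.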

Additional observations from a re-analysis of the deposited data

How the results depend on the processing

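The member rows called lower by limma numbered 22 of 27. This count stayed at 22 with a pseudocount of 0.5 or 2, with no filter on low values and without the variance trend, and 25 were called with median-scaled libraries and with random decimals, the rows gained being Duxf3, Pramel6 and Pramel7. It was 7 of 10 when the filter was raised to 5 and ranged from 11 to 22 by limma and from 18 to 25 with random decimals when a library was left out. No member row was called higher in any of these fits, and none changed direction where it was called. Of the 27 rows, 21 were at 0 in both Myh9 KO libraries, so for these neither was possible. With the replicate block 7 member rows and, over all genes, 44 lower and 10 higher calls were left; the replicate numbers are only shared numbers, with a correlation of deviations of 0.04. Random decimals called 1351 genes lower and 1248 higher, and with a library left out 643 to 1486 lower and 649 to 1238 higher. By limma alone, leaving out a library gave 796 to 1030 lower and 599 to 1032 higher. Leaving out a library together with random decimals was added after the data were seen. A library left alone in its group was assumed to vary like the other group. Zscan4e lost its limma call without WT 1 or without WT 2; the other 21 called rows had equal values in both Myh9 KO libraries, so that their limma calls could not be lost there, and this is no sign of stability. With 0.5 added to each row above 0, the WT mean sum minus the Myh9 KO mean sum became 28 for Usp17l, 1.5 for Tdpoz and 8.75 for Obox, against 25.5, 1 and 7. With rows of a mean of at least 1 only, it was 4.5 for Obox, and for Tdpoz no row was left. The depth is unknown, so a value listed at 0 has no limit from counting.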

Other observations

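Rows that vanished in Myh9 KO cells were also counted over the whole table, with a limit chosen after the values were seen. Of 8159 rows with at least 5 in both WT libraries, 36 were at 0 in both Myh9 KO libraries. Members made up 12 of the 36, and 9 were on the lists of 2-cell-like and PRAME-type genes under other names. The reverse, 0 in both WT libraries and at least 5 in both Myh9 KO libraries, held for 1 row, Hal, a histidine-degrading enzyme, at 8 and 6 in Myh9 KO. Chromosomes 7 and 12 held 10 of the 36 rows each and chromosome 13 held 6. On chromosome 12 these were Arg2, the listed genes Gm2016 (8 and 9 in WT), Gm4027 (21 and 24), Gm5039 (14 and 16), Gm5662 (12 and 12) and Gm8300 (5 and 6), and 4 others, among them Gm7104 (8 and 8) and the serpin gene Serpina3m (7 and 7).

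The 15 rows outside members and lists held several predicted genes at levels like those of Zscan4 copies. Gm5580 had 15 and 17 in WT, D13Ertd608e 14 and 15, and Gm38947, on chromosome 7 like Zscan4, 13 and 12. Named genes among them were Pkd1l2 (9 and 7), Tmem72 (7 and 8) and Prex2 (5 and 6).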
